A study of Mus musculus with 23 samples.

Results

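The 12 libraries described here were chosen by their normalized count of Lcn2, the gene of lipocalin-2: all 23 libraries of the series were ranked by it, and the 6 highest were set against the 6 lowest, whatever their group, with 11 left between them. The libraries are bulk RNA-seq of polyadenylated RNA from virally infected orbitofrontal cortex (OFC) of male wild-type C57BL/6J mice, whose age is given as 8 weeks. On day 0 every mouse received an AAV6 vector driven by a GFAP promoter, which is active in astrocytes, and the vector carried ZBTB7A (a zinc-finger transcription factor, overexpressed) or GFP. On day 21 mice went through subthreshold social defeat stress or a control condition, behaviour was tested from day 22 to day 27, and tissue was collected on day 28. The series holds 5 libraries of ZBTB7A with stress, 5 of ZBTB7A control, 8 of GFP with stress and 5 of GFP control, so all mice had surgery, a virus and behavioural tests, the GFP controls included. The labels do not say that each library came from its own mouse, so the tests rest on the spread from sample to sample. A library's name joins its group to its title number.

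Lipocalin-2 is a small secreted protein that binds bacterial siderophores, the molecules with which bacteria take up iron, and was first described in neutrophil granules. In the injured or inflamed brain, astrocytes are a main source of it, and Lcn2, Gfap (the astrocyte intermediate filament), Serpina3n (a serine protease inhibitor), Steap4 (a metalloreductase) and C3 (the central component of complement) are widely used to mark reactive astrocytes. The same gene is therefore a marker of reactive glia and of granule-bearing myeloid cells, and in bulk tissue more cells of a type and more RNA per cell cannot be told apart.

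In the high libraries Lcn2 had 2047 normalized counts in GFP control 10, 1761 in ZBTB7A stress 17, 1308 in ZBTB7A control 14, 477 in ZBTB7A control 6, 456 in GFP stress 13 and 332 in GFP stress 12. In the low libraries, from the highest down, GFP control 1 had 29.0, GFP stress 5 had 26.03, ZBTB7A control 24 had 25.4, GFP control 11 had 17.8, GFP stress 22 had 10.8 and GFP stress 21 had 7.16. The 11 libraries between ran from 34.2 to 286, with a median of 156, so that the values just inside and just outside the sides were 332 and 286 at the upper edge and 29.0 and 34.2 at the lower edge. The levels form a continuous series without an evident break at either edge, and the 3 highest libraries stand above the rest. Because these values chose the libraries, they are a description and Lcn2 was not tested.

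**Figure D1:**
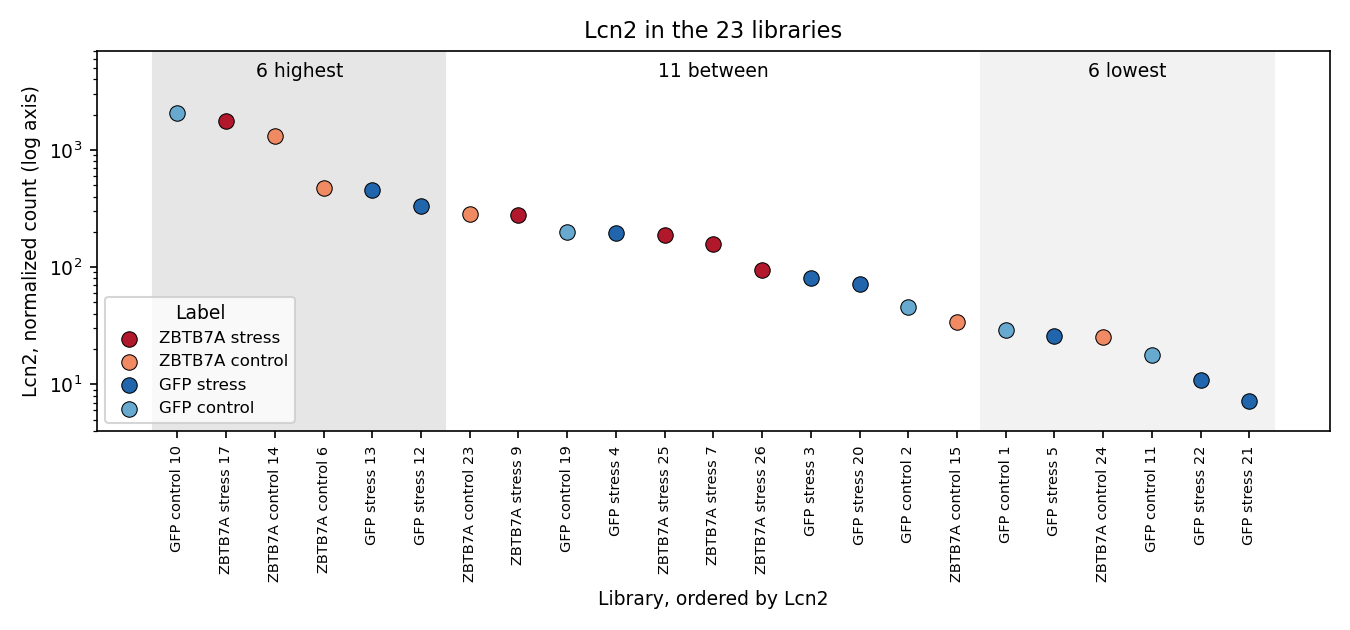
Normalized count of Lcn2 (log axis) in each of the 23 libraries, ordered from highest to lowest; colours give the label and grey bands mark the 6 highest and the 6 lowest libraries. Every label except ZBTB7A stress has libraries on both sides, and the values fall without a gap from 332 to 286 at the upper edge.

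The high side held 1 library of ZBTB7A stress, 2 of ZBTB7A control, 2 of GFP stress and 1 of GFP control. The low side held none of ZBTB7A stress, 1 of ZBTB7A control, 3 of GFP stress and 2 of GFP control. Libraries labelled ZBTB7A numbered 3 of 6 on the high side and 1 of 6 on the low side (Fisher's exact test, two-sided, p = 0.545, adjusted over the 2 labels tested p = 1). Stressed libraries numbered 3 of 6 on both sides (Fisher's exact test p = 1). Within groups Lcn2 ran over more than a factor of 10, with 95.4 to 1761 in the stressed ZBTB7A group, 25.4 to 1308 in ZBTB7A control, 7.16 to 456 in the stressed GFP group and 17.8 to 2047 in GFP control. Each side held libraries of both vectors and of both stress conditions, and the comparison below describes which genes went with Lcn2 from library to library and tests neither label.

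Recovered reads came to 12.5 to 51.9 M in high libraries (median 20.1 M) and 13.5 to 38.4 M in low libraries (median 24.2 M). The title numbers were divided here into 3 runs, 1 to 9, 10 to 17 and 19 to 26, at points that the labels do not mark. These runs were unevenly spread: the high side held 1, 5 and 0 libraries of the first, second and last run, and the low side 2, 1 and 3. The labels do not say what a run stands for, so run and side can be told apart only in part. Zbtb7a had 3357 to 3955 normalized counts in the 10 libraries labelled ZBTB7A (median 3793) and 3033 to 4666 in the 13 labelled GFP (median 3785), so its level did not separate the vector labels. The level of 22 striatal medium spiny neuron genes, the mean of their centred log2 values, ran from -2.33 to 1.91 in high libraries and from -2.13 to 0.77 in low libraries. With that level as a covariate 61 genes, against 63 without it, were called higher by the test described below and 0 lower. Of the 63, 54 were still called.

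To show what lies in front of the genes the results turn on, promoters of 4 genes are printed from RefSeq (GRCm38.p6), each reaching from 250 bases before the gene's start to 50 after it and written 5′ to 3′ on the gene's strand. They belong to Lcn2, to C3, to Cybb, the called gene of smallest p, and to Fgr, the called gene whose level was most closely tied to Lcn2 in the libraries between. Capitals mark matches on either strand to GGG, any 5 bases and CC, a loose form of the kappaB element bound by NF-kB, and to GAGGAA, the core of the element bound by PU.1, a factor of myeloid cells; overlapping matches run together.
Lcn2, chr2:32387690-32387989, minus strand: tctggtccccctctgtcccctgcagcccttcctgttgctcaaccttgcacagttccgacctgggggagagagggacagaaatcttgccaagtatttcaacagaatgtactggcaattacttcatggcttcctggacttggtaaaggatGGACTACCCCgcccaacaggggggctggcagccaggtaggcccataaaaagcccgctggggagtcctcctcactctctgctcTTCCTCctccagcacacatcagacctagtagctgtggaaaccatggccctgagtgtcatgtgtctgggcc
C3, chr17:57228087-57228386, minus strand: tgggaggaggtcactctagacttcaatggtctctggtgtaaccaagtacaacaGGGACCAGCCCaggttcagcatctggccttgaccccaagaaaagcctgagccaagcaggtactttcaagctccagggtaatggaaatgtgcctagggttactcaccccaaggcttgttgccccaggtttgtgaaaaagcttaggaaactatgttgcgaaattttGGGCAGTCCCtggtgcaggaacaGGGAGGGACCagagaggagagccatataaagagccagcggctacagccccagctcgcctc
Cybb, chrX:9469275-9469574, minus strand: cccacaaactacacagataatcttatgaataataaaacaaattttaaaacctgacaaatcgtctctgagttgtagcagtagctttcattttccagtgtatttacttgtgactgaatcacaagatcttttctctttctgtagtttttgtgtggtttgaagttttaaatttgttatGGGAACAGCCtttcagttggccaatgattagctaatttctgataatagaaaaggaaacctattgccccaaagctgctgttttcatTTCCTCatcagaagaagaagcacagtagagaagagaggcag
Fgr, chr4:132973845-132974144, plus strand: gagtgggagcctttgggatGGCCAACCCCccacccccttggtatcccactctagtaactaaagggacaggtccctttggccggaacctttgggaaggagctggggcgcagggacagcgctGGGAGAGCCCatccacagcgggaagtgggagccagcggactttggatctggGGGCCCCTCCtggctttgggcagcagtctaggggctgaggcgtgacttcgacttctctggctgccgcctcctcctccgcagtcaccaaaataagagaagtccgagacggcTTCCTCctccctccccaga
The kappaB form occurs 1 time in the Lcn2 window, 4 times in that of C3, 1 time in that of Cybb and 3 times in that of Fgr. GAGGAA occurs 1 time each in the windows of Lcn2, Cybb and Fgr. TTCNNNGAA, the element bound by STAT factors, was searched too and is in none of the 4. Of the 63 genes called below, 49 had a RefSeq promoter in the table; the kappaB form was in 25 of them (51.0%) and in 53.5% of all 27025 genes, TTCNNNGAA in 5 (10.2%) and 9.55%, and GAGGAA in 26 (53.1%) and 31.2%. GAGGAA was added after the called genes were seen, a match is not a site, and no test was made.

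Between high and low libraries, 63 of 16384 genes were called, all of them higher in high libraries and none lower (limma, Benjamini-Hochberg adjusted p under 0.05; 0.385% higher and 0% lower). At an unadjusted p under 0.05, 1145 genes were higher (6.99%) and 618 lower (3.77%). Of the 63, 12 belong to one of the 35 gene lists used here, in the lists of microglia, neutrophils and monocytes, interferon response and lysosome, and none by this test to an astrocyte list. Their log2 differences ran from 0.52 to 4.18 with a median of 1.04, against a median of -0.01 over all genes tested. High and low libraries did not overlap for 47 of the 63, where over all genes 0.647% did not overlap with the high side above and 0.14% with it below.

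The called genes include subunits of the NADPH oxidase, the enzyme with which phagocytes make superoxide. Cybb, its membrane-bound catalytic subunit, had a lowest, median and highest normalized count of 121, 240 and 291 in high libraries, against 27.8, 42.3 and 78.4 in low libraries, a log2 difference of 2.18 ± 0.26 (SE, n = 6 each; limma adjusted p = 0.0131). Ncf1, the cytosolic organizer subunit, had 277, 372 and 471 in high libraries, against 158, 190 and 202 in low libraries (1.01 ± 0.12, limma adjusted p = 0.0131). The sides did not overlap for either gene. Ncf4, another cytosolic subunit, had 53.5, 68.4 and 116 in high libraries, against 19.03, 25.8 and 33.0 in low libraries (1.49 ± 0.20, limma adjusted p = 0.0154). Rac2, the small GTPase of blood cells that switches the oxidase on, had 121, 172 and 296 in high libraries, against 54.0, 76.9 and 85.9 in low libraries (1.28 ± 0.19, limma adjusted p = 0.0163). Both kept high and low libraries apart. Cyba, the partner of Cybb in the membrane, rose by 1.32 on the log2 scale (limma adjusted p = 0.0391); for Cyba the sides overlapped, with a lowest high library at 191 and a highest low library at 208.

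Other called genes are given here singly and not as a list; some act in leukocyte adhesion. Itgb2, the beta chain of the leukocyte integrins, had 297, 533 and 710 in high libraries, against 153, 190 and 237 in low libraries (1.39 ± 0.19, limma adjusted p = 0.0154). Parvg, an adaptor that links integrins to actin in blood cells, had 178, 210 and 227 in high libraries, against 104, 124 and 152 in low libraries (0.73 ± 0.11, limma adjusted p = 0.0163). Fermt3, which activates leukocyte integrins, rose by 0.96 (limma adjusted p = 0.0213). Hk3, a hexokinase of myeloid cells, had 93.7, 124 and 187 in high libraries, against 45.6, 59.4 and 64.2 in low libraries (1.16 ± 0.16, limma adjusted p = 0.0154). Tent5c, a poly(A) polymerase that stabilizes messenger RNAs of secreted proteins in B lineage cells, had 61.7, 98.0 and 120 in high libraries, against 14.3, 32.9 and 36.4 in low libraries (1.63 ± 0.24, limma adjusted p = 0.0163). None of these 4 with printed ranges overlapped between the sides.

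Some called genes encode signalling molecules of haematopoietic cells; they were gathered here after the calls and not from a list. They include the Src family kinase Fgr (2.65), the kinase Fes (0.84), the phosphatases Ptpn6 (1.09) and Inpp5d (0.52), and the exchange factor Vav1 (0.73), each given as its log2 difference with a limma adjusted p between 0.0163 and 0.0321. Inpp5d, an inositol phosphatase that counts among the microglia genes, had 511, 686 and 778 in high libraries, against 426, 462 and 507 in low libraries. Among receptors, Csf2rb, the shared chain of the receptors for GM-CSF and related cytokines, rose by 1.46, Ptprc (CD45, carried by nearly all leukocytes) by 1.08 and Cd300lf, an inhibitory myeloid receptor, by 2.76 (limma adjusted p = 0.0258, 0.0321 and 0.0317). Pirb (1.89) and Lilrb4a (2.09) are inhibitory receptors of families with near-identical copies, so that reads could have been split or shared among the copies. The transcription factors Irf5 (0.66), Irf8 (0.94) and Ikzf1 (0.77), all active in blood cell lineages, were called as well. The genes of this paragraph other than Inpp5d, Irf8 and Lilrb4a lie outside the rule for named genes and were chosen after their values were seen.

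The largest differences were in genes of low count. Cd5l, a protein secreted by tissue macrophages, had 7.31, 38.3 and 123 in high libraries, against 0, 0.67 and 5.73 in low libraries (4.18 ± 0.69, limma adjusted p = 0.0279). Saa3, an acute-phase protein with close paralogs, had 2.28, 37.5 and 111 in high libraries, against 0, 0.96 and 2.52 in low libraries (4.07 ± 0.72, limma adjusted p = 0.0321). The sides of Saa3 overlapped through 1 library, GFP stress 12, which was lower than GFP control 1. Cxcr2, the neutrophil receptor for CXC chemokines, had 3.50, 12.2 and 26.5 in high libraries, against 0, 0 and 1.74 in low libraries (3.27 ± 0.47, limma adjusted p = 0.0163). Slpi, an inhibitor of neutrophil elastase, had 3.50, 14.1 and 49.0 in high libraries, against 0, 0.89 and 1.74 in low libraries (3.22 ± 0.52, limma adjusted p = 0.0258). Saa3, Cxcr2 and Slpi met the filter, 10 in at least 5 libraries, only through high libraries, and no low library reached 10. Their calls are therefore in part fixed by the filter and are values only, while Cd5l met it in the libraries between alone. Of the 63 called genes 15 had a mean under 50 over the 12 libraries, and at counts of a few reads the log2 difference depends on the added 1.

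Several called genes were abundant and belong to the lists of lysosome, microglia, or neutrophil and monocyte genes. Ctsd, the lysosomal protease cathepsin D, had 10140, 19316 and 24220 in high libraries, against 8757, 9300 and 9958 in low libraries (0.94 ± 0.17, limma adjusted p = 0.0321). The sides did not overlap, but GFP stress 12 was only just above the highest low library. Lyz2, lysozyme of myeloid cells, had 1060, 4768 and 5902 in high libraries, against 195, 476 and 1341 in low libraries (2.73 ± 0.51, limma adjusted p = 0.0420). Gpnmb, a glycoprotein of lipid-laden phagocytes, rose by 3.20 on the log2 scale (limma adjusted p = 0.0477), with 6573 in ZBTB7A control 14 and 778 in GFP stress 12 at the ends of the high side. Its sides overlapped, with the highest low library at 865. Laptm5, a lysosomal membrane protein of blood cells, had 1097, 2030 and 2203 in high libraries, against 923, 999 and 1093 in low libraries (0.87 ± 0.14, limma adjusted p = 0.0279). Tyrobp, the adaptor through which TREM2 signals, had 412, 814 and 898 in high libraries, against 298, 397 and 429 in low libraries (0.94 ± 0.17, limma adjusted p = 0.0321). In each of these 5 genes GFP stress 12 was the lowest high library.

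Inside the groups that have both sides, 2 against 1 libraries in ZBTB7A control, 2 against 3 in GFP stress and 1 against 2 in GFP control, the high side was above the low side for all 63 called genes, with median log2 differences of 0.90, 1.00 and 1.33. Over all genes tested 21.7% were higher in all 3 groups. Within the first run of title numbers (1 against 2 libraries) and the second (5 against 1) the 63 genes were higher too, with medians of 0.96 and 1.24; the last run has no high library. These are the libraries in which the genes were called, so the counts describe them and add no evidence. With vector and stress as covariates 0 genes were called (limma, 1588 at an unadjusted p under 0.05), and with the run as a covariate 0 (1533); all 63 stayed above 0 with an unadjusted p under 0.05 in both fits. The count was 0 without GFP control 10 and without ZBTB7A stress 17, and 5 to 15 without GFP stress 21, GFP stress 5, GFP stress 13, ZBTB7A control 14, GFP stress 22 or GFP control 11. It was 27 without GFP control 1, 29 without ZBTB7A control 24, 57 without ZBTB7A control 6, and 527 higher and 27 lower without GFP stress 12.

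The 4 reactive astrocyte markers that accompany Lcn2 were above every low library in 5 of the 6 high libraries but did not pass the limma test. C3 had 133, 2635 and 6416 in high libraries, against 34.4, 99.6 and 389 in low libraries (3.96 ± 0.91, limma adjusted p = 0.0854). Steap4 had 10.5, 346 and 688 in high libraries, against 10.8, 14.7 and 33.4 in low libraries (3.23 ± 0.90, limma adjusted p = 0.173). For both the lowest high library was GFP stress 12, inside the range of the low side for C3 and just below it for Steap4, while the other 5 were above every low library. Serpina3n had 582, 2940 and 4917 in high libraries, against 400, 611 and 1069 in low libraries (1.71 ± 0.47, limma adjusted p = 0.160). Gfap had 2840, 17373 and 26388 in high libraries, against 3666, 5711 and 8427 in low libraries (1.23 ± 0.45, limma adjusted p = 0.343). GFP stress 12 had the lowest Gfap of all 23 libraries, so the label of reactive libraries does not hold for it by these markers. GFP stress 13 was above the low side but within the range of the libraries between, with 1155 for Serpina3n, 45.9 for Steap4, 713 for C3 and 11345 for Gfap, where the medians between were 1261, 62.1, 540 and 8762. The other 4 high libraries were above every library between for all 4 markers, so the label holds clearly for 4 of the 6. Without GFP stress 12 all 4 passed, C3 at 4.68, Serpina3n at 2.08 and Gfap at 1.67 on the log2 scale (limma adjusted p = 0.00336, 0.00674 and 0.00216), and Steap4 with a limma adjusted p of 0.00495. That library is singled out here by its low values of these same markers, so the fit without it adds no evidence. Over 34 settings other than the reported one, C3 was called in 10, Gfap in 7, Serpina3n in 9 and Steap4 in 11.

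**Figure D2:**
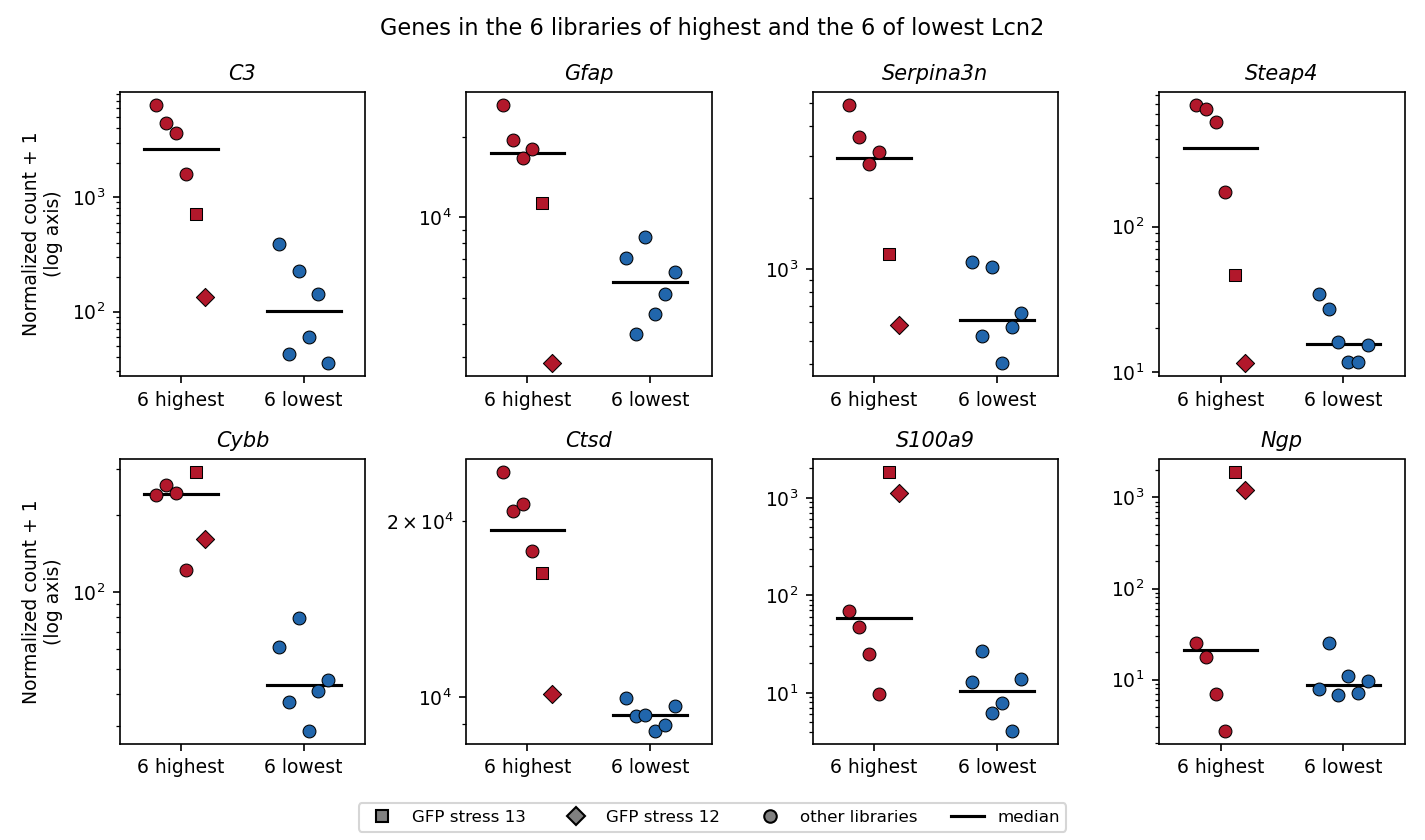
Normalized count plus 1 (log axis) of 8 genes in the 6 libraries of highest Lcn2 (red, left) and the 6 of lowest (blue, right); points are libraries, with a square for GFP stress 13 and a diamond for GFP stress 12, and lines are medians. GFP stress 12 lies at the height of the low libraries for C3 and Serpina3n and below them for Steap4 and Gfap, while GFP stress 12 and 13 stand far above the rest for S100a9 and Ngp.

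The high side joins libraries of different make-up. S100a9, a calcium-binding protein of neutrophils, had 1820 in GFP stress 13 and 1113 in GFP stress 12, but 8.74 to 68.0 in the other 4 high libraries and 3.09 to 26.03 in low libraries. Ngp, a granule protein of neutrophil precursors, had 1879 in GFP stress 13 and 1192 in GFP stress 12, 1.75 to 23.99 in the other 4 high libraries and 5.77 to 24.3 in low libraries. Alas2, the first enzyme of haem synthesis in red cell precursors, had 670 in GFP stress 13 and 436 in GFP stress 12, and 36.1 to 58.6 in the other 4 high libraries. One library between the sides, ZBTB7A control 23, was like GFP stress 12 and 13, with 1103, 873 and 649 for S100a9, Ngp and Alas2, and it was next in rank by Lcn2. The summed count of 4 blood genes was 2880 in GFP stress 13 and 1781 in GFP stress 12. It was 193 to 260 in the other 4 high libraries and 213 to 724 in low libraries. The summed normalized count of 24 neutrophil and monocyte genes was 4244 to 13987 in high libraries and 1719 to 3445 in low libraries; none of the 24 was at 0 in all high libraries and 2, Elane and Ly6g, were at 0 in all low libraries. In the other 4 high libraries, whose sums were 4244 to 8611, Lyz2 alone gave 2483 to 5902, and GFP stress 12 with 7755 lay within their range. The list's level, the mean of centred log2 values, overlapped between the sides, from -0.47 in high libraries and up to -0.26 in low libraries. In ZBTB7A control 23 the sum was 7358, where the other 10 libraries between reached at most 4329.

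The other 4 high libraries, GFP control 10, ZBTB7A stress 17, ZBTB7A control 14 and ZBTB7A control 6, had the highest levels of 12 pan-reactive astrocyte genes, 1.52, 1.41, 1.11 and 0.77 as means of centred log2 values. GFP stress 13 stood at 0.16 and GFP stress 12 at -0.74, and low libraries ran from -1.005 to -0.23. GFP stress 13 therefore had marker levels above the low side together with high granule genes, and GFP stress 12 had high granule genes with marker levels inside or below the range of the low side. Without both libraries, a choice made after the data were seen, 378 genes were called higher and 2 lower, and 61 of the 63 genes were among them. Cxcr2 then differed by 2.82 (limma adjusted p = 0.0123), whereas S100a9 differed by 1.59 and Ngp by -0.07 (limma adjusted p = 0.289 and 0.971).

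Gene lists were described by their counts and medians, without a test, against 0.385% of all genes called higher and a median log2 difference of -0.01. That share holds for limma with every library of both sides. Of the same 16384 genes edgeR called 100 higher, DESeq2 374, and limma without GFP stress 12 called 527. Of 12 pan-reactive astrocyte genes tested none was called by limma (11 at an unadjusted p under 0.05; edgeR called 1 and DESeq2 9), and all 12 differences were above 0, where 47.9% of all genes tested were, with a median of 1.19. Cd44, the hyaluronan receptor, came closest with 122, 343 and 545 in high libraries, against 62.6, 103 and 145 in low libraries (1.59 ± 0.32, limma adjusted p = 0.0557). Without GFP stress 12, the high library lowest in these genes, 9 of the 12 were called. None was called without GFP control 10, without ZBTB7A stress 17, with vector and stress as covariates or with the run as a covariate. The 12 genes of the LPS-type (A1) list and the 11 of the ischaemia-type (A2) list had medians of 0.57 and 0.70 and no call by limma (7 and 5 at an unadjusted p under 0.05; edgeR 0 and 0, DESeq2 5 and 4). Differences were above 0 for 9 of the 12 and 8 of the 11, with lowest differences of -0.15 and -0.61. The largest of the ischaemia-type list was that of Tgm1, a transglutaminase. It had 8.23, 309 and 494 in high libraries, against 6.94, 18.6 and 49.4 in low libraries (2.94 ± 0.88, limma adjusted p = 0.207). The 30 homeostatic astrocyte genes had a median of 0.14 and no call by limma (9 at an unadjusted p under 0.05; edgeR 0, DESeq2 3); Slc1a2, the main glutamate transporter, differed by 0.09 and Aldh1l1, a general astrocyte marker, by 0.18 (limma adjusted p = 0.688 and 0.443).

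The limma calls fell in immune and lysosome lists. Of 22 activated microglia genes 4 were called higher (edgeR 8, DESeq2 15), Cybb, Ctsd, Gpnmb and Lilrb4a, all 22 differences were above 0 and the median was 0.89. Of 25 microglia identity genes 3 were called (edgeR 7, DESeq2 16), Laptm5, Inpp5d and Tyrobp, 24 were above 0 and the median was 0.43. P2ry12, the purinergic receptor of resting microglia, was the exception at -0.0007 (limma adjusted p = 0.999), and Tmem119, another gene of resident microglia, differed by 0.26 (limma adjusted p = 0.404). Of the 14 tested neutrophil and monocyte genes 3 were called, Cxcr2, Csf3r and Lyz2, and the median was 2.25; without GFP stress 12 and 13 the median was 0.93, without GFP stress 13 alone 1.29, without GFP stress 12 alone 1.47, and with the run as a covariate 0.99. DESeq2 called 11 of the 14 and edgeR 3. Only 14 of the 24 members passed the filter, and Cxcr2 did so only through high libraries. The median and the calls are thus over members partly chosen for being high there. Csf3r, the receptor for G-CSF, which microglia also carry, had 221, 364 and 522 in high libraries, against 177, 184 and 205 in low libraries (0.90 ± 0.17, limma adjusted p = 0.0439). The 24 lysosome genes had 2 calls (Laptm5 and Ctsd; edgeR 4, DESeq2 15), all 24 above 0 and a median of 0.36. Of 21 complement genes tested none was called by limma (13 at an unadjusted p under 0.05; edgeR 3, DESeq2 11), with a median of 0.83; C1qc, a chain of the recognition protein C1q, had 1187, 2576 and 3002 in high libraries, against 1198, 1301 and 1342 in low libraries (0.84 ± 0.18, limma adjusted p = 0.0629).

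Of 29 interferon response genes 2 were called by limma (edgeR 2, DESeq2 3), Irf8 and Bst2, with 28 above 0 and a median of 0.35. Bst2, the antiviral protein tetherin, had 110, 168 and 191 in high libraries, against 79.8, 89.98 and 113 in low libraries (0.75 ± 0.15, limma adjusted p = 0.0455). The 21 antigen presentation genes had no call by limma (11 at an unadjusted p under 0.05; edgeR 0, DESeq2 4) and a median of 0.52. The 13 tested chemokine and adhesion genes had no call by limma (8 at an unadjusted p under 0.05; edgeR 1, DESeq2 5) and a median of 0.97. Of 22 tested genes of IL-6 family and STAT3 signalling none was called by limma or edgeR and 2 by DESeq2 (8 at an unadjusted p under 0.05 by limma), with a median of 0.19. Without GFP stress 12 the median was 0.33 and 5 were called. Without GFP control 10, or without ZBTB7A stress 17, none was. Stat3 itself differed by 0.16 (limma adjusted p = 0.511), and Bcl3, a partner of NF-kB p50, by 1.49 (limma adjusted p = 0.133). Among 18 tested genes of lipocalin receptors and iron handling none was called by limma (10 at an unadjusted p under 0.05; edgeR 1, DESeq2 5) and the median was 0.48. Slc22a17, a receptor for lipocalin-2, differed by 0.06 (limma adjusted p = 0.827), whereas Ftl1, the ferritin light chain, had 1167, 1982 and 2319 in high libraries, against 964, 1134 and 1295 in low libraries (0.73 ± 0.14, limma adjusted p = 0.0507).

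**Figure D3:**
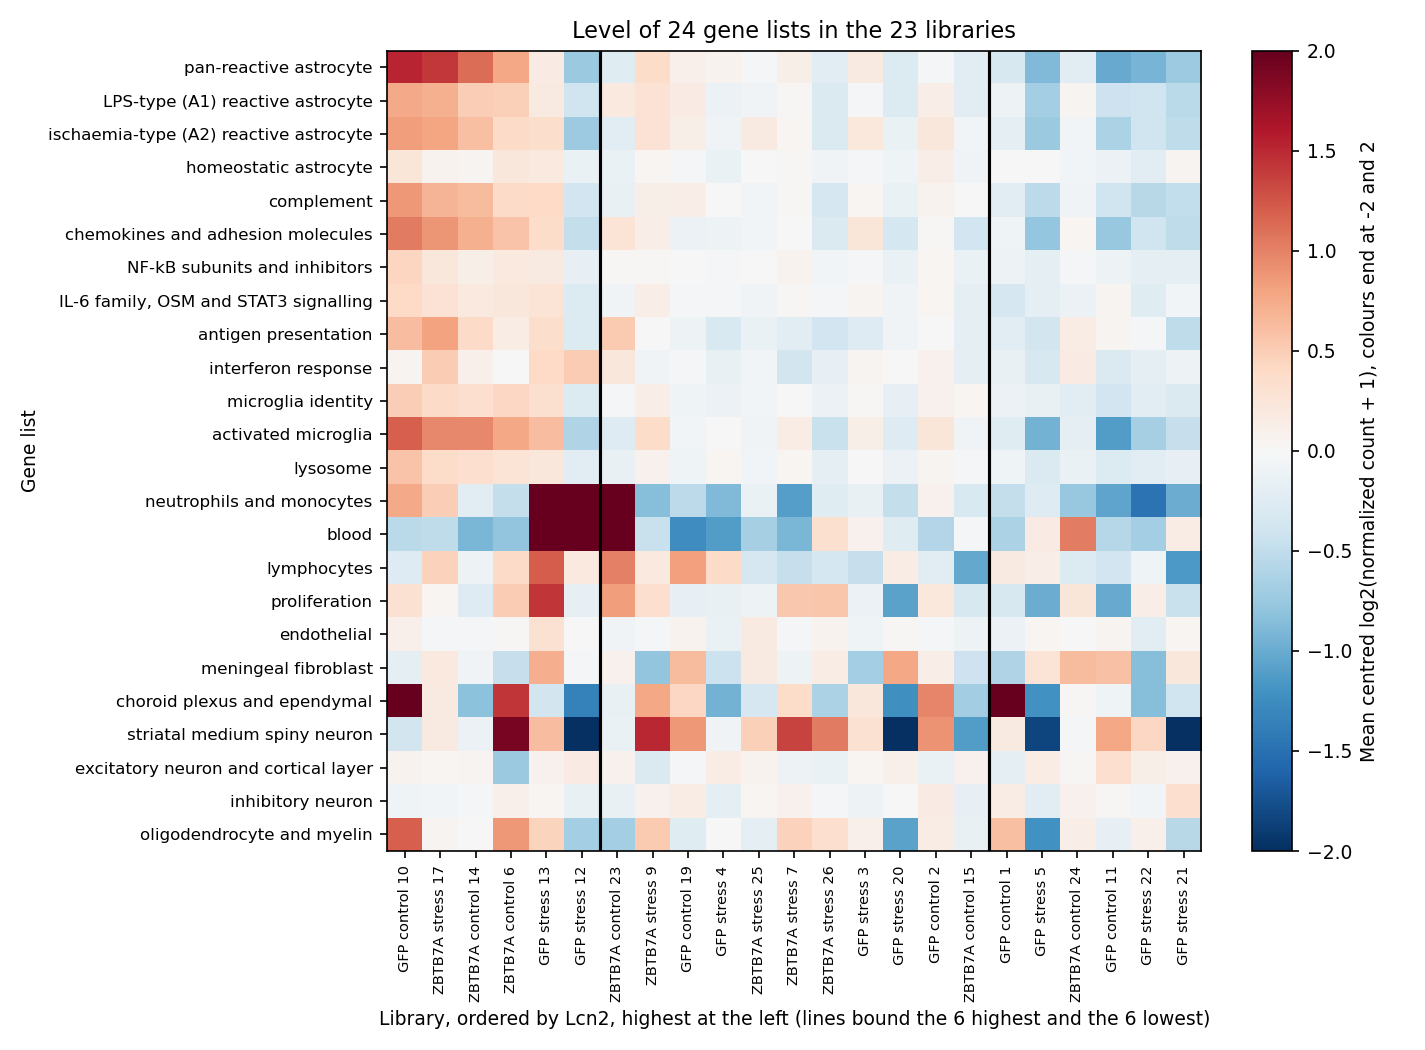
Level of 24 gene lists (rows; mean of centred log2 normalized counts plus 1, red above and blue below the mean of all libraries, colours ending at -2 and 2) in the 23 libraries ordered by Lcn2 from left to right. Pan-reactive astrocyte and activated microglia genes are highest in the 4 libraries at the left (1.52 to 0.77 for the astrocyte list), and neutrophil and blood genes in GFP stress 13, GFP stress 12 and ZBTB7A control 23.

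No gene was called lower in high libraries by limma or edgeR. By DESeq2 on the recovered reads 15 were lower, and 618 had an unadjusted p under 0.05 with limma. Among genes averaging at least 50, the 5 with the lowest p were Ttc14 (-0.25), Nae1, a subunit of the NEDD8-activating enzyme (-0.30), Lrrn3, a neuronal leucine-rich repeat protein (-0.34), Ppia, cyclophilin A (-0.32), and Ndufaf4, an assembly factor of respiratory complex I (-0.34), with limma adjusted p of 0.0865, 0.0939, 0.103, 0.126 and 0.126. Ttc14 had 2773, 3044 and 3376 in high libraries, against 3478, 3592 and 3928 in low libraries, without overlap. Of 34 oxidative phosphorylation genes 2 differences were above 0 and the median was -0.12, with no call by limma (9 at an unadjusted p under 0.05; edgeR 0, DESeq2 1 lower). Neuronal lists held no call by limma, edgeR or DESeq2, with medians of -0.13 for 22 excitatory and cortical layer genes and -0.09 for 21 inhibitory genes (0 and 1 at an unadjusted p under 0.05). The excitatory median was 0.02 without ZBTB7A control 6, -0.24 without GFP stress 12 and -0.56 with the run as a covariate, so its sign rests on 1 library; the inhibitory median was -0.04 without ZBTB7A control 6. Camk2a, a kinase of excitatory neurons, had 58434, 87749 and 99946 in high libraries, against 62473, 78486 and 112959 in low libraries, with broad overlap (0.04 ± 0.16, limma adjusted p = 0.932). Myelin genes had a median of 0.50, or 0.31 without GFP stress 5, with all 24 above 0 and no call by limma, edgeR or DESeq2 (0 at an unadjusted p under 0.05), and Mbp, myelin basic protein, differed by 0.51 ± 0.36 (limma adjusted p = 0.634).

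The 11 libraries between the sides were in neither side, although it is their Lcn2 levels, ranked with the rest, that placed them there, and they cover a narrower range of Lcn2. There the slope of each gene on log2(Lcn2 + 1) was fitted, and 0 of 16384 genes were called (limma; 408 at an unadjusted p under 0.05, 1.61% positive and 0.885% negative; DESeq2 called 1). Of the 63 called genes 55 had a slope above 0 (87.3%), against 48.9% of all genes tested. A positive slope with an unadjusted p under 0.05 was found for 9 of the 63 (14.3%), against 1.61% of all genes. Their median slope was 0.08, against -0.001 over all genes. ZBTB7A control 23, rich in granule genes, had the highest Lcn2 of the 11 libraries. It also had their highest counts of Cybb (161), Ncf4 (72.3), Hk3 (118) and Rac2 (225), though not of Itgb2 or Ctsd. The shares include this library and are not given without it, so they may rest on it in part. They are a description, since genes of one cell type move together and are not independent.

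Fgr had the smallest p among the called genes there, with a slope of 0.54 ± 0.14 log2 units per log2 unit of Lcn2 (limma, unadjusted p = 0.00216, adjusted p = 0.993). Slpi had 0.76 ± 0.23 (limma, unadjusted p = 0.00640, adjusted p = 0.993), and 0.50 without ZBTB7A control 23, the granule-rich library. Among the markers Steap4 had 0.48 ± 0.17 (limma, unadjusted p = 0.0130) and C3 0.39 ± 0.28 (unadjusted p = 0.193), while Serpina3n had 0.002 ± 0.12 and Gfap -0.07 ± 0.14 (limma, unadjusted p = 0.988 and 0.634). In these libraries Gfap and Serpina3n thus gave slopes near 0, with standard errors of more than 0.1. Of the 22 activated microglia genes 13 slopes were above 0, and of the 25 microglia identity genes 9. Among the 34 oxidative phosphorylation genes, whose differences between the sides were mostly below 0, 30 slopes were above 0.

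**Figure D4:**
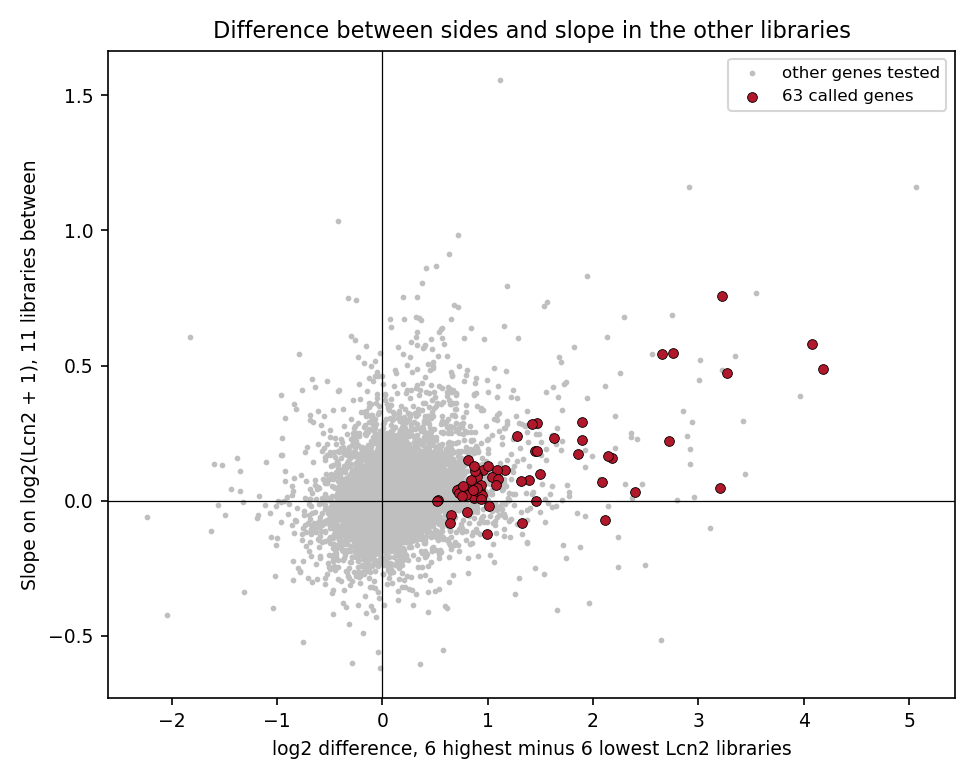
Each point is a gene tested, with its log2 difference between the 6 highest and the 6 lowest Lcn2 libraries across and its slope on log2(Lcn2 + 1) in the 11 libraries between upward; red points are the 63 called genes. Of the red points 55 lie above the zero line of the slope, against 48.9% of all genes.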

How the data were processed

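Bulk RNA-seq was measured in 23 libraries. The authors deposited a table of normalized counts, treated here as a signal: reads scaled by a factor for each library. Per the submitters' processing notes the tools were DESeq2 2.11.40.6, featureCounts 2.0.1 and HISAT2 2.1.0; mm10 and mm9 are both listed as builds, with roles not stated. The kit, TruSeq RNA v2 per the labels' protocols, does not mark strand, so overlapping genes cannot be told apart. All values (100%) came out as whole reads within 0.02 reads once divided by the library's step, and these recovered reads fed the count tests. Of 27606 entries 428 identical repeats were dropped; 27178 genes remained, 4174 of them at 0 throughout and 958 lacking a symbol. Value columns left unused numbered 0.

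The fits used 16384 genes, those reaching 10 in at least 5 libraries with Lcn2 left out, as log2(normalized count + 1), in limma 3.58.1 under R 4.3.3 (trended, robust empirical Bayes, two-sided tests, Benjamini-Hochberg over all genes, called at an adjusted p under 0.05). Log2 differences are high minus low on this scale, which understates changes of low counts, and their errors are SE. List levels are means of the members' log2 values, each centred over the libraries; the 35 lists held 697 symbols, of which 696 were matched and 647 tested. The sides, members and lists were chosen with earlier results of these data known. The rule for named genes takes the markers; for each direction 8 called genes by lowest p among those averaging at least 50, and 4 by largest difference; up to 3 called members per list; the 5 genes of lowest p in a direction with under 5 calls; and up to 2 abundant members of each tissue list without a call. The text names a part of these, and other genes in it were chosen after their values were seen. Alternatives were another pseudocount (5), filter (none, or averages of at least 50), scaling (TMM), threshold (0.1) and test (DESeq2 1.42.0 or edgeR 4.0.16 on recovered reads, limma non-robust or with array weights), covariates, other numbers of libraries a side, and each library left out. Fits by title number and without GFP stress 12 and 13 were added after the data were seen. The fits were tested on simulated data. Figures used Python 3.11.15 and matplotlib 3.10.9.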

Additional observations from a re-analysis of the deposited data

Results flagged for a closer look

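Among 43 named genes, 86 sides of 6 libraries were looked at for a single library far from the other 5, and 7 were found. Chance gives about 1 in 20, so some of the 7 are expected by chance alone. The sides are not independent, since genes of 1 cell type move together. In GFP stress 12 Irf8 had 147 normalized counts where the next high library had 272, Laptm5 had 1097 (next 1768) and Tyrobp had 412 (next 766), each the lowest of the high side. Tyrobp in GFP control 11 was 298, the lowest of the low side (next 384), and Tent5c in GFP stress 21 was 14.3 (next 30.9). Enpp2, an enzyme abundant in choroid plexus and in myelin-forming cells, had 10322 in GFP control 10, the highest of the high side (next 5877), and 10086 in GFP control 1, the highest of the low side (next 5261).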

How the results depend on the processing

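Against 63 genes called higher and 0 lower, the counts were 33 and 0 at a mean of 50 or more, 100 and 0 with edgeR, 374 and 15 with DESeq2, 405 and 11 with array weights, 175 and 2 at an adjusted p under 0.1, 277 and 0 without 5 libraries far in striatal level, and 0 and 0 with vector and stress or with the number run as covariates. With 4 libraries a side they were 288 and 4, with 5 a side 530 and 18, and with 8 a side 39 and 0. A slope over all 23 libraries gave 484 and 35, with number run 286 and 10, and with vector and stress 407 and 27. Of settings added after the data were seen, leaving out GFP stress 12 and 13 gave 378 and 2, leaving out title numbers 10 to 17, which leaves 1 high library assumed to vary like the low ones, gave 72 and 161, and the slope gave 0 within those numbers and 2 without them. Leaving out each library gave 0 to 527 higher and 0 to 27 lower. TMM scaling, a pseudocount of 5, no filter, the striatal level as a covariate and the fit without the robust option kept the count within 1.5 times; TMM moved the median of all genes from -0.008 to -0.011. The called genes that were tested, 63 in every other setting and 46 at a mean of 50 or more, stayed above 0, though not all past the threshold. Slopes in the libraries between gave 0 calls, and 1 with DESeq2. High minus low stressed libraries was 0, and -1 and 1 with 5 and 8 a side. The cause of these changes was not tested. No direction of a named gene's called difference reversed. No paired analysis was possible because no replicate number is shared between groups. At 12.5 to 51.9 M reads a library, Lcn2 rests on few reads in the lowest libraries, 5 in GFP stress 21 and 7 in GFP stress 22. Their order is uncertain by counting error alone. At the lower edge Lcn2 rests on 15 reads in GFP stress 5, on the low side, and on 23 in ZBTB7A control 15, between the sides. Which libraries fall on the low side is therefore uncertain there too.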
